A study of Schizosaccharomyces pombe with 9 samples.

Results

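The comparison set 2 fission yeast strains against each other, each lacking 1 copy of a gene pair that codes for L32, a protein of the ribosome's large subunit. SD2 lacked rpl32-2 (rpl3202 in the current annotation) and SD1 lacked rpl32-1 (rpl3201). It drew on 6 of the 9 arrays of the series, 3 of SD2 and 3 of SD1, paired by the replicate number of their titles. The other 3 arrays were of the undeleted parent SPQ-01, called WT, and entered the fit to estimate the spread. All strains carried SPQ-01 as their shared background, and their cultures were harvested from YEPD, a rich medium, at 30 °C once the OD600 was 5.0. The mating type of SPQ-01 and the number of clones behind each deletion strain are not given in the sources used here. Expression is given throughout on the log2 scale as deposited, and 2933 probe sets carried an S. pombe gene symbol in lower case.

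Ribosomal protein genes of yeasts often exist as near-identical pairs that encode almost the same protein. A cell that loses 1 copy still makes the protein from the other, so a comparison of both single deletions asks whether it matters which copy is left. The series as a whole concerns cells that flocculate without mating, that is, cells that stick together through surface proteins in the absence of the sexual programme.

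The strain differences of the arrays numbered 1 and 3 were not independent of each other, and this limits every result. Over 2931 S. pombe probe sets, without the deleted genes, the SD2 minus SD1 differences of number 1 correlated with those of number 3 at a Pearson r of 0.95. Their r with number 2 was 0.338. Number 3 and number 2 correlated at 0.337. The difference between numbers had an SD of 0.0755 for numbers 1 and 3, and of 0.318 and 0.326 against number 2. The same held for probe sets of a yeast that was not in the samples. On 2568 S. cerevisiae probe sets of the same arrays, none above 6 on any array, the strain differences of numbers 1 and 3 correlated at 0.618, and those of number 2 correlated at 0.0096 with number 1 and at 0.0222 with number 3. These correlations run across probe sets, which are not independent replicates. Array levels did not show this pairing. Deviations from the strain mean correlated at -0.70 in SD1 and -0.64 in SD2 between numbers 1 and 3. Between numbers 2 and 3 they correlated at 0.11 and 0.04. Such deviations sum to 0 within a strain, so negative values are in part built in. The labels call all arrays biological replicates. Here the arrays numbered 1 and 3 of a strain were averaged and counted as 1 sample, and number 2 as the other, which leaves n = 2 samples per strain.

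**Figure D1:**
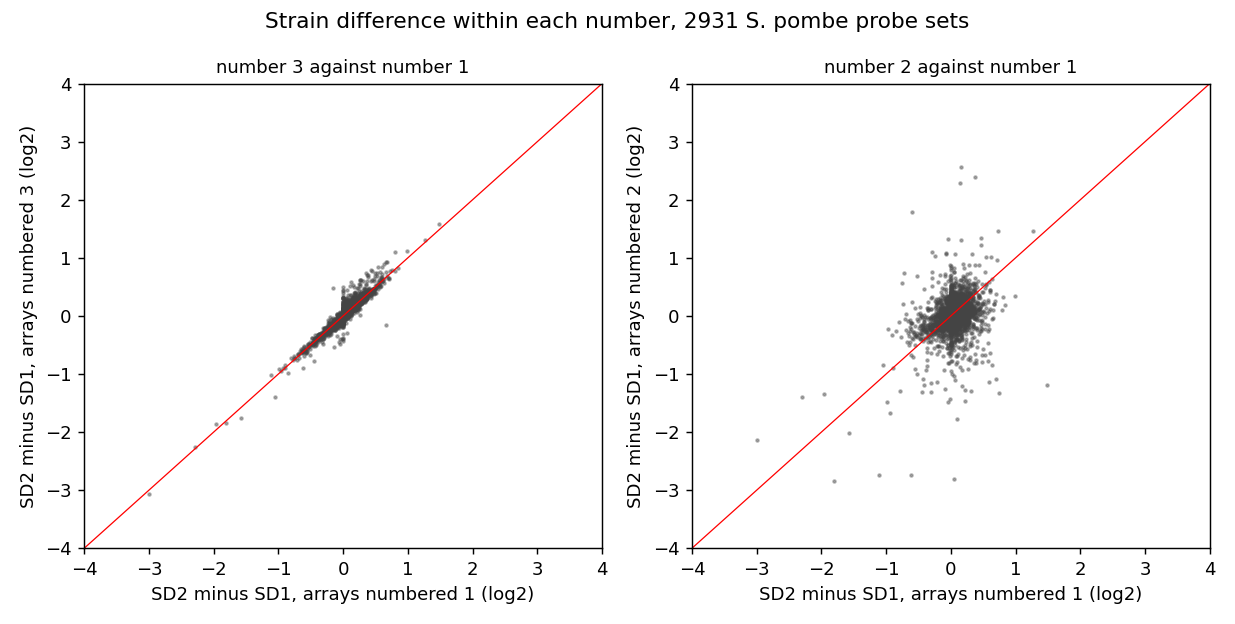
SD2 minus SD1 in log2 units within each replicate number, 1 point per S. pombe probe set without the deleted genes (2931 probe sets). The red line marks equal differences. Number 3 follows number 1 along the line (r = 0.95), and number 2 does not (r = 0.338).

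The targeted genes matched the strain labels. The rpl3201 value was 4.17, 6.04 and 4.90 on the SD1 arrays numbered 1, 2 and 3, and 14.92, 15.12 and 14.50 on the SD2 arrays. Of the SD1 arrays, 1 of 3 lay above the background, which was set on each array so that 95% of its S. cerevisiae probe sets fell below it (5.17 on average). The groups lay far apart, and rpl3201 was higher in SD2 (n = 2 samples per strain, limma, adjusted p = 0.0372, and 0.000844 without the replicate block). The fitted difference of 9.63 ± 0.41 (log2, SE) is not a measured fold, since most SD1 arrays lay below the background. With values floored at the background, the difference was 9.32. The rpl3202 value was 14.15, 14.21 and 14.48 on the SD1 arrays, and 7.25, 8.89 and 7.88 on the SD2 arrays. All SD2 arrays lay below all SD1 arrays but above the background. The difference was -6.03 ± 0.40 (log2, SE), with a limma adjusted p of 0.0752 with the replicate block and 0.003 without it.

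Beside WT, the surviving copy gave 0.80 ± 0.41 for rpl3201 in SD2 (log2, SE, limma adjusted p = 0.213, which did not pass) and 0.02 ± 0.40 for rpl3202 in SD1. Both values share the WT arrays, and the difference between them was not tested. The WT arrays read 13.88, 14.06 and 14.45 for rpl3201, so the SD2 array numbered 3 lay close to its WT partner and those numbered 1 and 2 lay farther above theirs. Whether either probe set also reads RNA of the other paralog was not tested.

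Of 2933 probe sets, 1 passed as higher in SD2 (0.0341%), which was rpl3201, and 0 as lower (0%), in limma's test with 2 samples per strain and the replicate number as a block. At an unadjusted p under 0.05 there were 197 (6.72%), of which 135 were higher in SD2 and 62 lower. Without the block, 1 was higher and 3 were lower (0.102%): rpl3201, rpl3202 and 2 probe sets of tlh2. When all 9 arrays were counted apart, as the design was first written, limma called 25 probe sets (0.852%) of 24 genes, 16 higher (0.546%) and 9 lower (0.307%). That count treats numbers 1 and 3 as separate samples, so its p-values are too small. Of those 25, 21 were neither a deleted gene nor tlh2, and all 21 had an adjusted p of 0.678 with 2 samples per strain. They are given here as values. The fit with 2 samples per strain left 2 residual degrees of freedom. Even rpl3202, deleted in SD2, missed the threshold in it (limma adjusted p = 0.0752). A count of 0 passing therefore does not show that a gene or a list was unchanged. With 2 samples per strain, rpl3201 itself missed the threshold in 4 of 19 other settings: without WT replicate 1, WT replicate 2 or SD2 replicate 2, and when only the SD1 and SD2 arrays were fitted with the block (adjusted p = 0.119 in limma).

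The strains were otherwise close. The median difference over all probe sets was 0.03, the 5th percentile was -0.29 and the 95th was 0.33 (log2, SD2 minus SD1). Differences of at least 1 were found on 19 probe sets, 6 higher in SD2 and 13 lower. All 3 SD2 arrays lay above all 3 SD1 arrays on 358 probe sets (12.2%) and below them on 179 (6.1%). Against WT, 957 probe sets (32.6%) passed for SD1 and 567 (19.3%) for SD2 in the same fit, 2 comparisons that share the WT arrays.

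The clearest difference outside the deleted genes was in tlh2, a gene for a RecQ-type helicase that lies next to the telomeres in near-identical copies. On a probe set marked as shared by several transcripts, the tlh2 value was 7.31, 7.25 and 7.07 in SD1 and 5.73, 5.23 and 5.31 in SD2. The SD2 arrays all lay below the SD1 arrays, and close to the background. The difference was -1.85 ± 0.12 (log2, SE, n = 2), with a 95% interval from -2.17 to -1.52 and a limma adjusted p of 0.0752, or 0.0031 without the replicate block.

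A second tlh2 probe set read 8.23, 8.36 and 7.87 in SD1 and 6.42, 5.53 and 6.03 in SD2. Again all SD2 arrays were lower, by -2.33 ± 0.28 (log2, SE, limma adjusted p = 0.678, and 0.0325 without the block). WT read near SD1 on both: SD2 minus WT was -1.56 and -1.94, and SD1 minus WT was 0.29 and 0.39. The other 2 tlh2 probe sets showed no such gap, with differences of -0.00 and 0.03 (log2). One of them read 3.66, 3.36 and 3.35 in SD1, below the background, and the other 5.52, 5.86 and 5.76. Which copy each probe set reads cannot be told apart here.

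**Figure D2:**
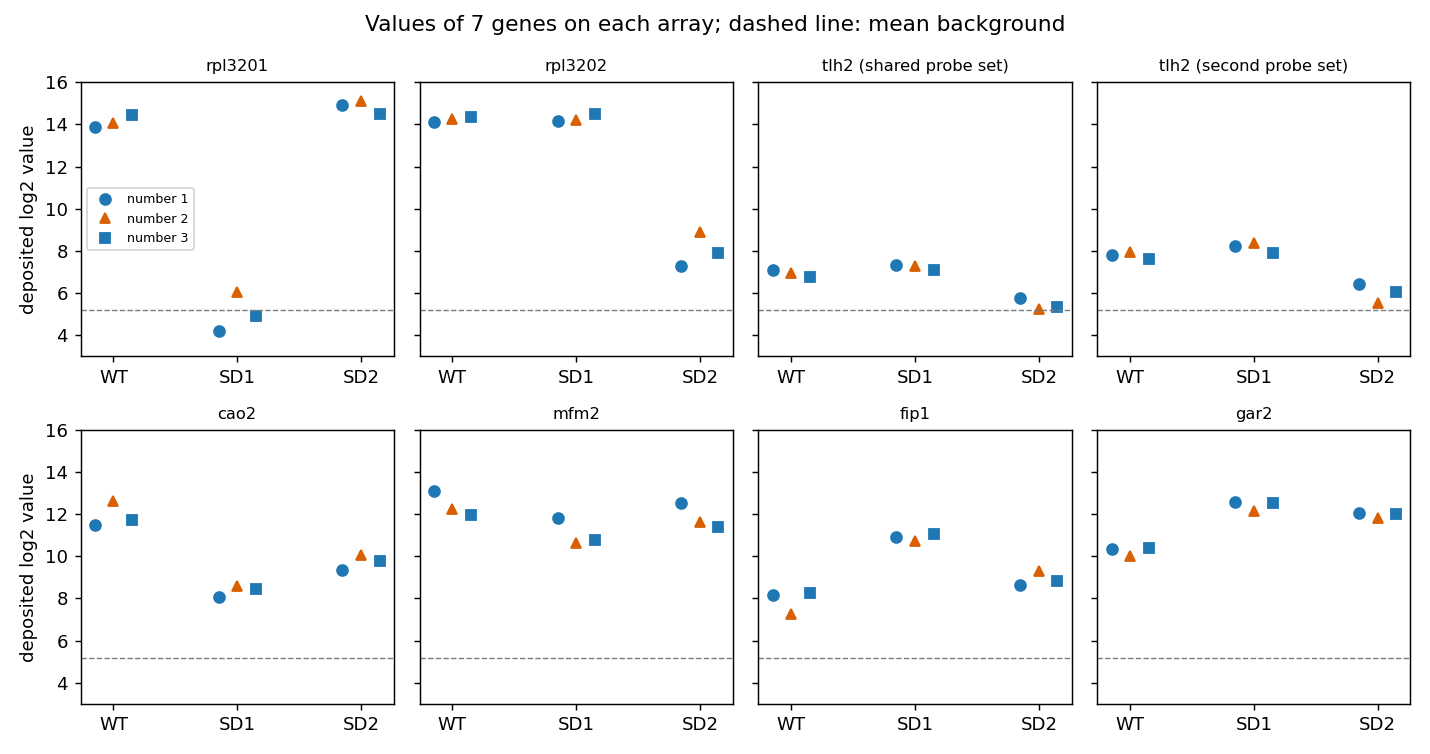
Deposited log2 values of 7 genes on each of the 9 arrays by strain, with blue circles for number 1, orange triangles for number 2 and blue squares for number 3. The dashed line is the mean background of 5.17. The deleted genes, both tlh2 probe sets shown, cao2, fip1 and gar2 have SD1 and SD2 arrays that do not overlap. Those of mfm2 overlap.

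Genes near the chromosome ends had differences in both directions. Of the 40 outermost protein-coding genes at each of 4 ends of chromosomes I and II, 32 were measured, and 0 passed. Their median difference was -0.08, with 8 higher in SD2 in both samples and 8 lower in both. Over all probe sets, 39.8% were higher in both samples and 22.7% were lower in both. Among these 32, cao2, which encodes a copper amine oxidase-like protein, read 8.06, 8.57 and 8.45 in SD1 and 9.33, 10.04 and 9.76 in SD2. The SD2 arrays were all higher, by 1.38 ± 0.19 (log2, SE, limma adjusted p = 0.678), and both strains were below WT, SD1 by -3.71 and SD2 by -2.33. The spf38 difference was 0.54 in the sample of numbers 1 and 3 and 0.55 in number 2.

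Iron acquisition genes had the lowest median of the lists with more than 1 measured gene. Many code for ferric reductases, the iron permease and multicopper oxidase pair, and transporters of iron-binding siderophores. The list also held the repressor genes fep1 and php4, the ferrichrome synthesis genes sib1 and sib2, and the transporter genes abc3 and vht1. Of 16 genes written down, 13 were measured, and 0 passed. Of these, 9 were lower in SD2 in both samples (69.2%, against 22.7% of all probe sets), 4 split and 0 were higher in both. The median was -0.83 (log2), but -0.35 in the sample of numbers 1 and 3 and -1.31 in number 2. Beside WT, the list's median was 1.13 in SD1 (10 of 13 above) and 0.55 in SD2 (8 of 13 above), values that share the WT arrays.

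The reductive uptake pair read lower on every SD2 array. The fip1 value, for the iron permease, was 10.92, 10.71 and 11.08 in SD1 and 8.62, 9.31 and 8.83 in SD2. Its partner fio1, the multicopper oxidase, read 11.02, 11.41 and 11.23 in SD1 and 9.05, 10.07 and 9.36 in SD2. Both genes had all SD2 arrays below all SD1 arrays. The fip1 difference was -1.84 ± 0.38 (log2, SE, limma adjusted p = 0.678, and 0.393 without the block), and the fio1 difference was -1.63 ± 0.55. The siderophore transporter gene str3 read 9.34, 9.64 and 9.69 in SD1 and 6.34, 7.50 and 6.62 in SD2, a difference of -2.59 ± 0.87. WT arrays read below the background for str3, so no fold against WT is given.

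The ferric reductase gene frp1 read 10.27, 11.89 and 10.27 in SD1 against 9.15, 9.15 and 9.26 in SD2. Its SD1 array numbered 2 stood well above the other SD1 arrays. The difference was -1.07 in the sample of numbers 1 and 3 and -2.74 in number 2, and for its paralog frp2 it was -0.76 and -2.75. For str1, a siderophore transporter, it was -0.95 and -1.49. The same SD1 array was the highest for abc3, a vacuolar transporter (-0.35 and -1.31), for php4, a repressor of iron-using genes (-0.35 and -1.16), and for vht1, a biotin transporter (-0.34 and -0.86). The ferrichrome synthesis genes sib1 and sib2 split, with 0.09 and 0.07 in numbers 1 and 3 and -0.65 and -0.39 in number 2. So did the siderophore transporter str2 (0.07 and -0.40) and fep1, the iron-sensing repressor of uptake genes (-0.30 and 0.65).

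Genes for proteins that use iron gave a median of 0.18 over 22 measured members, with 0 passing. In both samples 14 were higher (63.6%, against 39.8% of all probe sets) and 6 were lower (27.3%, against 22.7%). The farthest were isu1, the iron-sulfur cluster scaffold, at -0.76 and sdh2, the iron-sulfur subunit of succinate dehydrogenase, at 0.51 (log2). Among copper and zinc genes (14 measured, 0 passing, median -0.20), the low-affinity metal transporter gene fet4 differed by 0.61 in numbers 1 and 3 and by 1.02 in number 2. All its SD2 arrays were higher than its SD1 arrays, by 0.82 ± 0.14 (log2, SE, limma adjusted p = 0.678). The copper transporter gene ctr4 differed between samples, at 0.05 in numbers 1 and 3 and -2.81 in number 2.

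**Figure D3:**
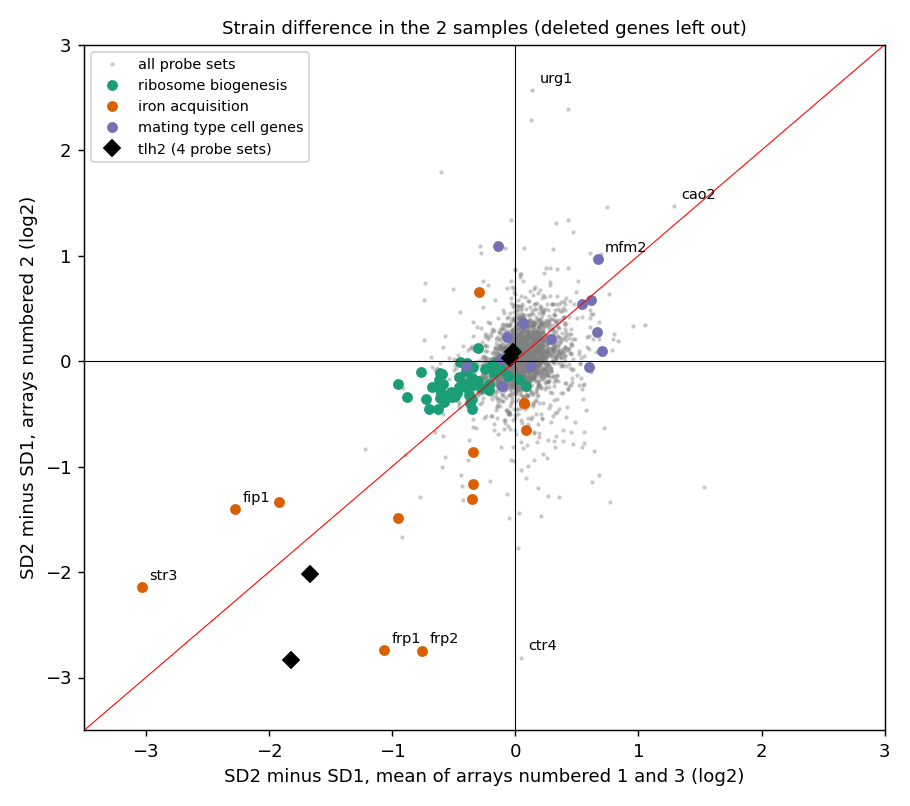
SD2 minus SD1 (log2) in the sample of numbers 1 and 3 (horizontal) and in number 2 (vertical), 1 point per probe set without the deleted genes, with 3 gene lists in colour and tlh2 as black diamonds. The red line marks equal differences. Iron genes spread down to -3.03 and -2.75, and ribosome biogenesis genes lie mostly to the lower left near the origin.

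Ribosome biogenesis genes, which code for factors that assemble ribosomal subunits in the nucleolus, had small negative differences in nearly every member. Of 126 genes written down, 51 were measured, and 0 passed in the fit with 2 samples per strain. In both samples 45 were lower in SD2 (88.2%, against 22.7% of all probe sets), 1 was higher and 5 split. In 35 members all SD2 arrays lay below all SD1 arrays, against 6.1% of all probe sets. The median was -0.33, with -0.40 in numbers 1 and 3 and -0.22 in number 2. With 9 arrays counted apart, 3 passed as lower: nmd3, gar2 and rrp8.

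The nmd3 gene encodes the export adaptor of the large subunit. Its value was 11.42, 11.05 and 11.32 in SD1 and 10.84, 10.66 and 10.74 in SD2, and the arrays did not overlap. The difference was -0.48 ± 0.09 (log2, SE, limma adjusted p = 0.678). For gar2, a nucleolar protein gene, the SD1 arrays ran from 12.15 to 12.58 and the SD2 arrays from 11.83 to 12.04, a difference of -0.43. The rRNA methyltransferase gene rrp8 differed by -0.39 and pno1, an assembly factor of the small subunit, by -0.48. Both strains stood above WT for most of the list, with a median of 1.38 in SD1 (49 of 51 above) and 1.10 in SD2 (48 of 51 above), values that share the WT arrays.

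RNA polymerase I and III genes (36 measured, 0 passing) had a median of -0.10. In both samples 19 were lower (52.8%, against 22.7% of all probe sets) and 9 were higher (25%, against 39.8%). The polymerase I subunit gene rpa12 read 11.36, 11.39 and 11.75 in SD1 and 10.91, 11.08 and 11.27 in SD2, a difference of -0.39. Ribosomal protein genes themselves had differences close to 0. Without the L32 pair, 72 genes of the large subunit lay between -0.16 and 0.08 with a median of -0.02, and 45 of the small subunit lay between -0.13 and 0.08 with a median of -0.03 (log2). In both lists 0 passed. Small as they were, the differences leaned lower. In both samples 45 of the 72 were lower in SD2 (62.5%), and 25 of the 45 (55.6%), against 22.7% of all probe sets. Many of these probe sets read near the top of the arrays' range, and whether that compresses differences was not tested.

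The M-factor genes and mam1 read higher in SD2 in both samples, and 0 of them passed. M cells secrete M-factor, a peptide pheromone encoded by mfm1, mfm2 and mfm3 and exported by the transporter of mam1. The mfm2 value was 11.83, 10.65 and 10.76 in SD1 and 12.54, 11.62 and 11.39 in SD2. The arrays overlapped, since number 1 was high in both strains. Within numbers the difference was 0.67 and 0.97 in the 2 samples, and 0.82 ± 0.12 in the fit (log2, SE, limma adjusted p = 0.678).

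The mfm1 value was 6.33, 6.06 and 5.93 in SD1 and 6.92, 6.64 and 6.57 in SD2, and mam1 read 9.16, 9.11 and 8.97 against 9.70, 9.65 and 9.51. For both genes all SD2 arrays were higher, with differences of 0.60 and 0.54. A second mfm1 probe set gave 1.11, and the mfm3 probe sets gave 0.64 and 0.47. All of these had an adjusted p of 0.678 in limma. Both strains were below WT for mfm1 (-1.30 in SD1 and -0.70 in SD2), mfm2 (-1.41 and -0.60) and mam1 (-1.70 and -1.16). These values share the WT arrays. Of the P-cell genes, map2, the P-factor precursor, gave -0.17 and map3, the M-factor receptor, gave 0.04. Over the 14 measured genes of both cell types, 0 passed and the median was 0.26. In both samples 7 were higher (50%, against 39.8% of all probe sets) and 2 were lower (14.3%, against 22.7%).

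The mating and meiosis list (57 measured, 0 passing) had a median of 0.13. In both samples 31 were higher (54.4%, against 39.8% of all probe sets) and 5 were lower (8.77%, against 22.7%). The meiosis inducer gene mei3 read 4.48, 4.22 and 4.04 in SD1 and 5.01, 4.70 and 4.73 in SD2. It lay below the background on all 9 arrays, so its difference of 0.55 is not a measured fold. The meiotic gene mcp3 lay above the background on 0 of 3 SD1 arrays and 1 of 3 SD2 arrays.

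The 3 measured flocculins and adhesins overlapped between the strains. The flocculin gene pfl8 read 9.72, 9.12 and 10.05 in SD1 and 8.96, 9.70 and 9.32 in SD2. The strains overlapped, and the difference changed sign between samples, at -0.74 in numbers 1 and 3 and 0.57 in number 2. Its estimate was -0.08 with a 95% interval from -0.99 to 0.82 (log2). The adhesins mam3 and map4 gave -0.05 and 0.08. Of 21 regulators of flocculation, 0 passed. In 2 of the 21 all SD2 arrays lay above all SD1 arrays, which is not above the share over all probe sets (12.2%). One was adn2, whose highest SD1 array read 9.73 and lowest SD2 array 9.84, a difference in means of 0.35. The yox1 difference changed sign between samples, at 0.47 in numbers 1 and 3 and -0.07 in number 2. The lists not described one by one, such as stress, chaperone, respiration, splicing and proteasome genes, had 0 passing members. Their medians ran from -0.11 (glucose-repressed genes) to 0.13 (nitrogen-regulated genes). With so few samples, 0 passing does not show that these lists were unchanged.

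**Figure D4:**
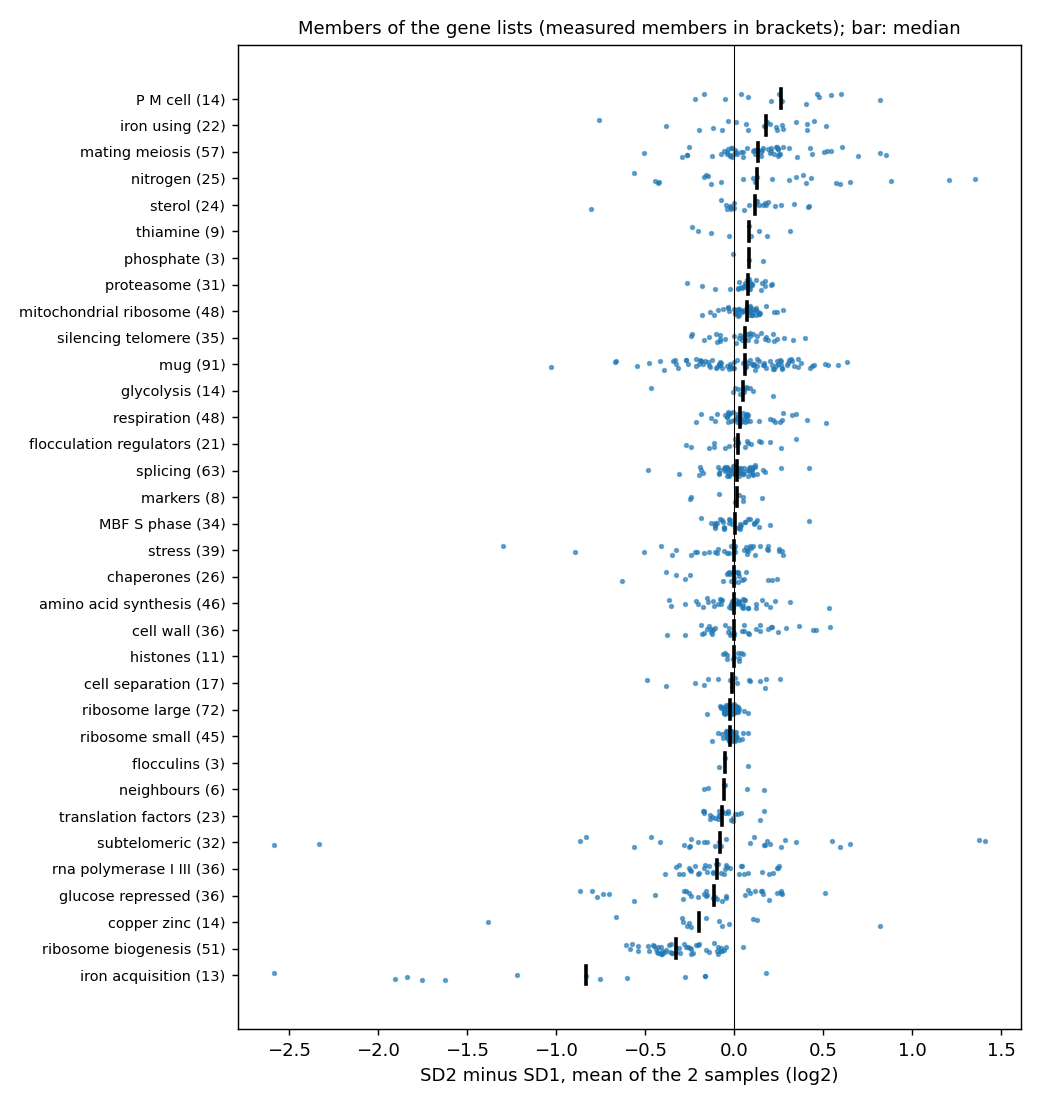
SD2 minus SD1 (log2, mean of the 2 samples) of the measured members of 34 gene lists (the deleted genes and the telomere-linked list are left out), 1 point per gene, with a black bar at the list's median and the number of members in brackets. Iron acquisition (-0.83) and ribosome biogenesis (-0.33) have the lowest medians among the lists drawn, and the genes of P and M cells (0.26) the highest.

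Neighbours of the deleted genes and common selection markers were read as checks on the strains. Of the 12 nearest protein-coding neighbours, 3 on each side of each deleted gene, 6 were measured. They differed by -0.17 to 0.17, and 0 passed. The markers also gave 0 of 8 passing, from -0.25 (ura5) to 0.15 (his7), and ura4 read 12.10, 11.71 and 11.61 in SD1 and 12.08, 11.56 and 11.58 in SD2.

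Other genes that passed with 9 arrays counted apart had differences of less than 0.6 in size with 2 samples per strain. Higher in SD2 were jnm1, a dynactin subunit gene (0.48), apc15, of the anaphase-promoting complex (0.48), the kinase gene ppk15 (0.47), orc3, of the origin recognition complex (0.41), nbs1, of the DNA-break repair complex MRN (0.38), coq6, of ubiquinone synthesis (0.38), and ure2 (0.35). Lower were gap1 (-0.45), in S. pombe a gene for a Ras GTPase-activating protein, and met9, a methylenetetrahydrofolate reductase gene (-0.37). Each had the same sign in both samples. The list of nitrogen-regulated genes counted gap1 among its members, so its median includes this Ras regulator gene. The sulfiredoxin gene srx1, which did not pass in either fit, read 10.72, 11.62 and 11.25 in SD1 and 9.78, 9.94 and 10.34 in SD2, a difference of -1.30 ± 0.24 (log2, SE).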

How the data were processed

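The deposited log2 values were made by the authors with RMA and Partek, per the submitters' processing notes. Versions and settings are not given in the sources used here. Of 10928 probe sets, 2933 were named as S. pombe genes (2914 with 1 symbol, matched to the annotation of assembly ASM294v3), 2601 served as S. cerevisiae background, and 5177 had no name here. Arrays give no depth, so their number limits the precision.

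The test was limma 3.58.1 in R 4.3.3 (lmFit with strain and replicate number, eBayes), with Benjamini-Hochberg adjustment over 2933 probe sets and a threshold of 0.05. The design was first written with 9 separate arrays. That fit and its alternatives were run first. The agreement of numbers 1 and 3 was found afterwards, and only then were these averaged as 1 sample, with and without the block and with and without a variance trend, and the averaged fit with the block, the counterpart of the first design, was reported. On simulated data with numbers 1 and 3 drawn as 1 sample, the only requirement was that mean estimates lay near the simulated differences. That requirement does not bear on how many such differences the fit would call. The simulation counted these calls too, but the counts are not given here.

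The members and lists were chosen with earlier results of these data known. There were 36 lists, read on the brightest probe set of a gene. Named genes were the deleted genes, the 15 largest rises and falls among the 9-array calls with 1 sign in all 3 numbers, the next ones by p up to 10 each way, up to 4 called members of a list (or the 2 farthest from 0), and every measured iron acquisition, telomere-linked, flocculin, neighbour and marker gene. Outside that rule, ctr4, map2, map3, mfm3 and the further mfm1 and tlh2 probe sets were named after their values were seen.

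The replicate number was kept as a block because the comparison pairs arrays by it. Deviations of same-numbered SD1 and SD2 arrays from their strain means correlated at 0.134 to 0.87. SD1 number 3 with SD2 number 2 gave 0.637, above the same-numbered pairs of number 2 (0.134) and number 3 (0.618). It lay below the pair of number 1 (0.87). A same-numbered pair with WT gave -0.10, so these correlations give the block little support outside number 1. Equal values were 412 for the SD1 and SD2 arrays numbered 1, 9 for number 2 and 12 for number 3, and 0 to 1 between numbers. Separate cultures are claimed by the titles alone.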

Additional observations from a re-analysis of the deposited data

How the results depend on the processing

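With n = 2 samples per strain and the replicate block, 1 probe set passed as higher and 0 as lower. In the same data without the replicate block, 1 and 3 passed. Limiting the fit to SD1 and SD2 gave 0 and 0 with the block, and 1 and 2 with no replicate block. Median centring and quantile normalization gave 1 and 2 each, and a variance trend gave 1 and 1. Flooring at the background or leaving out dim probe sets gave 1 and 0. Counting arrays apart gave 16 and 9 with 9 arrays and the block, 1 and 4 without it, 5 and 4 with 6 arrays and the block, and 1 and 5 without it. Leaving out 1 array, or number 1 or 3, gave 0 to 1 higher and 0 to 2 lower. In these, rpl3201 did not pass without WT replicate 1, WT replicate 2 or SD2 replicate 2. Leaving out number 2 was not run as a test, since 1 sample per strain would remain. The cause of these changes was not tested. Of 94 named probe sets other than the deleted genes and tlh2, 0 passed in any of the settings with 2 samples per strain. Averaging numbers 1 and 3, and the fits that count arrays apart beside it, were chosen after seeing the data.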

Other observations

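The array also held 5177 probe sets with no name here, of which 2166 had a mean above the background. In the fit with 2 samples per strain, 0 passed in either direction (limma, with 177 at an unadjusted p under 0.05), and 38 higher and 28 lower passed when the 9 arrays were counted apart. Their differences ran from -2.90 to 1.89 (log2), with 5 at least 1 higher and 5 at least 1 lower in SD2.

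The nitrogen and uracil-regulated genes urg1 and urg2 differed mainly in number 2. The urg1 difference was 0.14 in numbers 1 and 3 and 2.57 in number 2, and that of urg2 was 0.13 and 2.28. The subtelomeric gene mmf2 gave 0.42 and 2.39. These genes were chosen after their values were seen.

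As a measure of RNA quality, the signal at the 3' end of 18S rRNA less that at its 5' end differed between SD2 and SD1 by -0.14, 0.15 and -0.19 (log2) in numbers 1, 2 and 3, and that of 28S rRNA by -0.21, 0.20 and -0.34. For actin mRNA the same measure differed by only 0.06, -0.01 and 0.03. Numbers 1 and 3 had the same sign and number 2 the opposite sign. The part of RNA quality in the results was not tested.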
